A study of Homo sapiens with 6 samples.

Results

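The ZNF genes are the human genes whose approved symbol begins with ZNF followed by a number, most of which encode DNA-binding proteins built from C2H2 zinc fingers. The deposited table held 488 such symbols with a row of their own among 35544 loci. Of these, 225 reached the expression filter of at least 1 FPKM (fragments per length of transcript, scaled to the size of the library) in at least 3 of 6 libraries, and these 225 genes are described here. The filter, and hence the choice of members, used the levels themselves. It left 263 ZNF symbols below it, and a further 38 rows joined a ZNF symbol with other gene names and were not counted as members. Among the members, ZNF252P, ZNF271P and ZNF767P are annotated as pseudogenes.

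The 6 libraries were made from polyA RNA of SiHa, an established human cervical cancer cell line. The 3 vector libraries came from cells transfected with a vector plasmid and the 3 circ_0005358 libraries from cells transfected with a plasmid for hsa_circ_0005358, a circular RNA, all collected 72 h after transfection. The study looked for mRNAs downstream of that circular RNA. The labels number the libraries without naming separate cultures. The p-values therefore rest on the variation among the 6 libraries at hand, and this variation may be technical. The circular RNA itself was not analysed here.

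A C2H2 finger is a short fold in which a pair of cysteines and a pair of histidines hold a zinc ion. Fingers in tandem can recognize a DNA sequence. Many ZNF proteins also carry a KRAB box, which recruits the corepressor TRIM28 and through it the histone methyltransferase SETDB1 and HP1 proteins, a route known for silencing transposable elements. Others carry a SCAN box, which pairs proteins with each other, and some ZNF proteins act outside transcription, in ribosome assembly or ubiquitin and SUMO transfer. KRAB ZNF genes lie in clusters of related copies on chromosome 19 and are usually expressed at low levels.

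The fold that names the family is shown as the coding sequence of the first complete finger found in each of the 6 members that passed the test, since these are the members on which the comparison of treatments turns. Capitals mark the codons of the cysteines and histidines that hold the zinc, and positions are of GRCh38, from GENCODE 29.
ZNF678 (chr1:227654545-227654607, plus strand): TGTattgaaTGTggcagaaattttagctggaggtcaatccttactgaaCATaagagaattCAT
ZNF827 (chr4:145892321-145892383, minus strand): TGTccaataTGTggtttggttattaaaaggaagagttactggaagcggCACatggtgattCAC
ZNF142 (chr2:218649353-218649415, minus strand): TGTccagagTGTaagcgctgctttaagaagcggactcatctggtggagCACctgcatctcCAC
ZNF550 (chr19:57547569-57547631, minus strand): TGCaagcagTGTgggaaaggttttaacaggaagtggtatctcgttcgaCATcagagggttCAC
ZNF180 (chr19:44477356-44477418, minus strand): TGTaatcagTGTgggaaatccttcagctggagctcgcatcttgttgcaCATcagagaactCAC
ZNF480 (chr19:52321947-52322009, plus strand): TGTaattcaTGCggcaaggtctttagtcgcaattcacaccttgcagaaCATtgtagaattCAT
Each of these fingers spans 63 bases within a single coding exon. The number of fingers found was 14 in ZNF678, 9 in ZNF827, 31 in ZNF142, 8 in ZNF550, 12 in ZNF180 and 10 in ZNF480. Because the repeat is shared across the family, the share of each member's transcript that also occurs in transcripts of other genes, counted in stretches of 50 bases, bears on whether fragments can be assigned to it. That share was 0% for ZNF827, ZNF142, ZNF180 and ZNF480, 0.623% for ZNF678 and 1.22% for ZNF550.

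The libraries were similar in how much ZNF RNA they held. The summed level of the 225 members lay between 730 and 798 FPKM with vector and between 742 and 799.6 FPKM with circ_0005358, which was 0.523% to 0.563% of all FPKM in a library. The table holds no read counts. The value of 1 fragment, read from loci with 1 transcript of known length, gave a depth relative to the deepest library of 71.1% for circ_0005358 replicate 2 and of 93.6% to 100% for the other 5. At 1 FPKM, a transcript of the members' median length of 3751 bases corresponded to an estimated 61.3 fragments in circ_0005358 replicate 2 and 80.7 to 86.2 in the others. Vector replicate 3 listed 480 of the 488 ZNF symbols above 0, against 425 to 436 in the other libraries, in step with its 27803 loci above 0 against 23227 to 23834. Of 10 epithelial markers 8 averaged at least 1 FPKM, with a sum of 1283 to 1350 FPKM with vector and 635 to 714 FPKM with circ_0005358. That sum moved with the treatment, and its part in the results below was not tested. KRT5 stood at no more than 0.0414 FPKM, and SFN was listed at 0 in 5 libraries. Of the markers of other cell types, CD14 and LUM alone averaged at least 1 FPKM. The leukocyte sum ran from 10.4 to 13.3 FPKM with vector and from 1.44 to 16.3 FPKM with circ_0005358, with PTPRC at no more than 0.0605 FPKM. The fibroblast sum ran from 6.93 to 10.2 and from 1.65 to 2.11 FPKM, most of it LUM, and endothelial, neural and erythroid sums stayed under 0.6 FPKM. The part of these markers in the results was not tested either.

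Few ZNF genes passed the test for a difference between the treatments. Of the 225 members 6 passed the test (limma, adjusted p under 0.05 over all 10295 tested loci), with ZNF550, ZNF180 and ZNF480 higher and ZNF678, ZNF827 and ZNF142 lower with circ_0005358. That is 2.67% of the members, while 11.4% of all tested loci passed (6.41% higher and 4.96% lower). Of the 6, ZNF678 and ZNF180 had reached the filter only through the group in which they were high. At an unadjusted p under 0.05 the members numbered 29, or 12.9%, and all tested loci 27.3%. Groups did not overlap in 40 members (17.8%), of which 23 were higher and 17 lower, and in 35.8% of all tested loci. The 40 include ZNF678, ZNF180 and ZNF624, which was not called. All of these reached the filter through 1 group alone, so their groups could not overlap. The median log2 fold change of the members was -0.02, with 106 of 225 above 0, and that of all tested loci was 0.02.

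**Figure D1:**
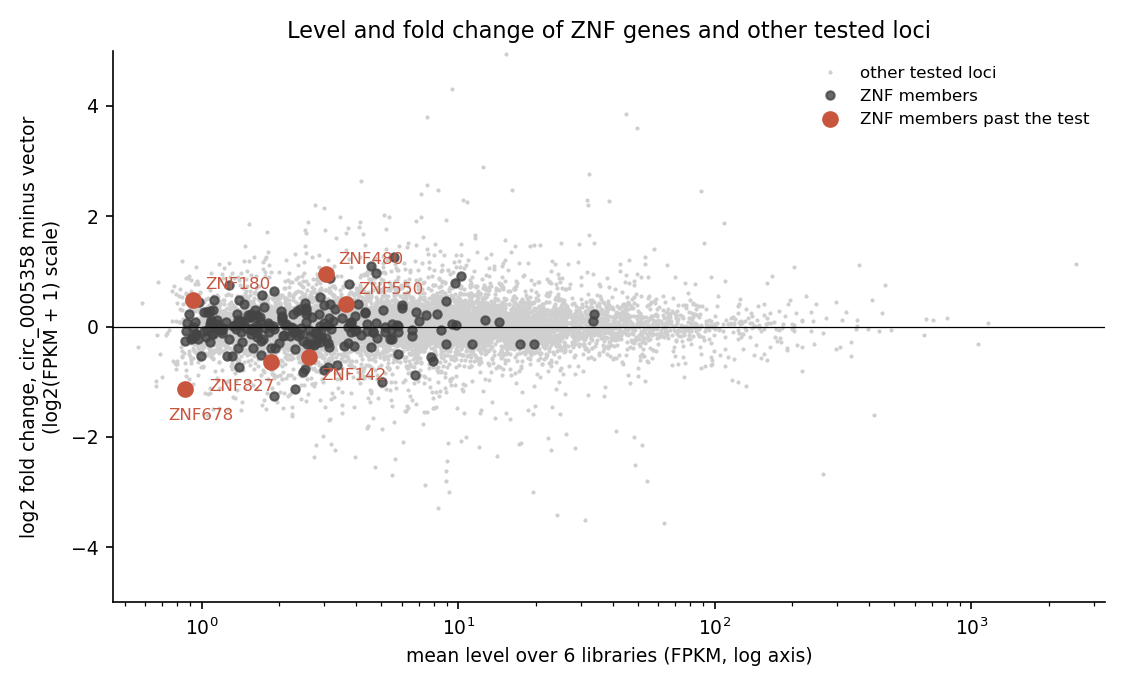
Mean level over the 6 libraries (FPKM, log axis) against log2 fold change, circ_0005358 minus vector, for 225 ZNF members (dark) and the other tested loci (grey), with the 6 members past the test in red. The members sit at the low end of the expressed range and spread to both sides of 0.

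The members were also compared with loci of similar level. Among all tested loci the share called was 12.7% at a mean under 2 FPKM, 10.5% from 2 to 5 FPKM, 10.6% from 5 to 20 FPKM and 13.7% above that. Among the members it was 3.12% (3 of 96) under 2 FPKM, 3.30% (3 of 91) from 2 to 5 FPKM, and 0 of 36 from 5 to 20 FPKM. From 5 to 20 FPKM 8 members (22.2%) had an unadjusted p under 0.05 (limma), against 27.2% of all tested loci of that level. The 3 under 2 FPKM were ZNF827 with ZNF678 and ZNF180, and the last 2 reached the filter through 1 group alone. Above 20 FPKM there were 2 members, neither of them called.

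ZNF678 showed the largest relative difference among the 6, and its groups lay far apart. The vector libraries gave 1.12, 1.52 and 2.05 FPKM and the circ_0005358 libraries 0.140, 0.181 and 0.156 FPKM. The mean fell from 1.56 ± 0.468 to 0.159 ± 0.0208 FPKM (SD, n = 3 each), a ratio of 0.102. The fitted change was -1.13 ± 0.14 on the log2(FPKM + 1) scale, which understates changes of low genes (SE; limma, adjusted p = 0.00852). With a pseudocount of 0.5 it was -1.62 and with 0.1 it was -2.64. ZNF678 reached the filter through the vector libraries alone. With every vector library at or above 1 FPKM and every circ_0005358 library below it, the groups could not overlap.

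ZNF827, which encodes a protein known to bring the NuRD remodelling complex to telomeres, fell by 0.64 on the log2(FPKM + 1) scale (SE 0.07; limma, adjusted p = 0.00589). Its vector libraries stood at 2.55, 2.32 and 2.61 FPKM and its circ_0005358 libraries at 1.20, 1.14 and 1.37 FPKM. For ZNF142, which had the most fingers of any member, the vector libraries gave 3.02, 3.20 and 3.66 FPKM and the circ_0005358 libraries 1.74, 2.05 and 1.98 FPKM. It fell by 0.55 on the log2 scale (SE 0.09; limma, adjusted p = 0.0157). In both genes every circ_0005358 library lay below every vector library, with mean ratios of 0.496 and 0.584.

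The members that rose all carry a KRAB box and lie on the long arm of chromosome 19. ZNF480 gave 1.17, 2.60 and 1.59 FPKM in the vector libraries and 4.33, 4.50 and 4.02 FPKM in the circ_0005358 libraries, and rose by 0.95 on the log2 scale (SE 0.19; limma, adjusted p = 0.0359). ZNF550 rose from 2.99, 2.89 and 3.07 FPKM to 4.50, 4.15 and 4.20 FPKM, or by 0.41 on the log2 scale (SE 0.06; limma, adjusted p = 0.0136). ZNF180 rose from 0.449, 0.720 and 0.635 FPKM to 1.40, 1.19 and 1.12 FPKM, or by 0.48 on the log2(FPKM + 1) scale (SE 0.09; limma, adjusted p = 0.0325). For ZNF180 the mean ratio was 2.06, and the fitted change was 0.66 with a pseudocount of 0.5 and 0.95 with 0.1. The groups of each gene were apart, and the vector libraries of ZNF480 differed by 2.21 times among themselves. ZNF180 reached the filter through the circ_0005358 libraries alone, so its groups could not overlap. The same holds for ZNF624, whose difference did not pass (limma adjusted p = 0.174).

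**Figure D2:**
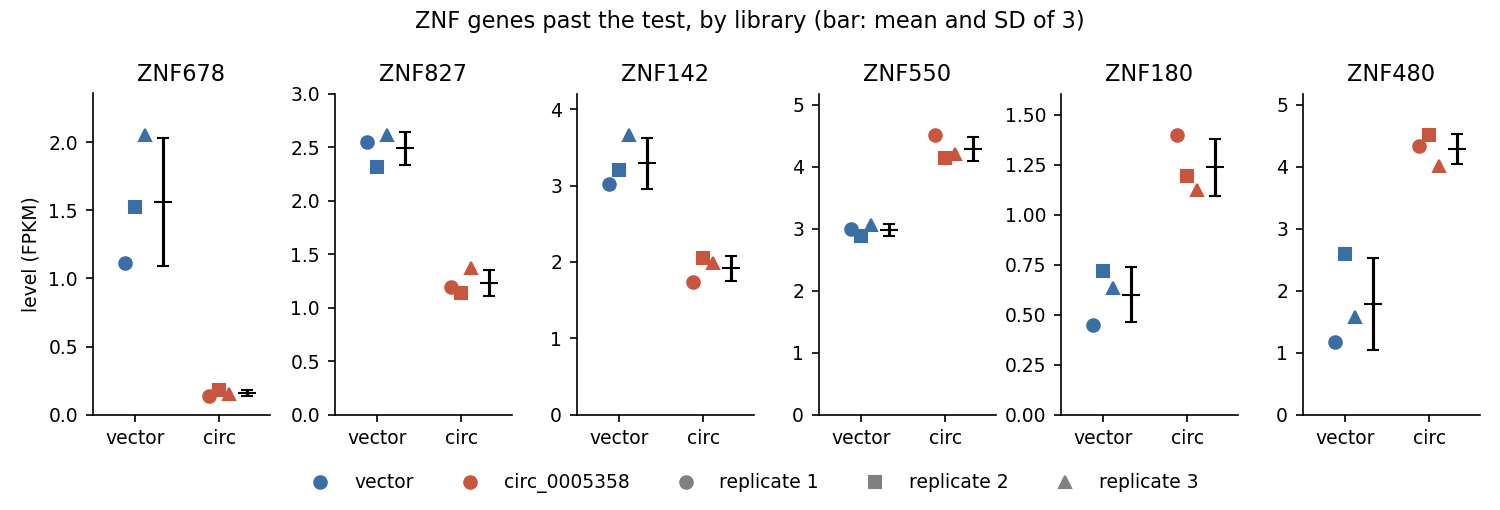
Level in FPKM of the 6 members past the test, by library (marker shape: replicate number), with the mean and SD of 3 libraries beside each group. ZNF678, ZNF827 and ZNF142 are lower and ZNF550, ZNF180 and ZNF480 higher in every circ_0005358 library than in any vector library.

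With members chosen by a mean of at least 1 FPKM over all 6 libraries, 4 of 219 were called (ZNF142, ZNF480, ZNF550 and ZNF827) against 10.5% of all loci. With at least 1 FPKM in all 6 libraries, 5 of 144 were called, the same 4 and ZNF879 (lower with circ_0005358), against 11% of all loci. Under either filter ZNF678 and ZNF180 were no longer members.

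The calls rested on all libraries to different degrees. ZNF678 and ZNF827 passed whichever single library was left out. ZNF142 was lost without vector replicate 2 (limma adjusted p = 0.0588) or circ_0005358 replicate 3 (0.057). ZNF550 was lost without vector replicates 1 or 2 (limma adjusted p = 0.0518 and 0.0585) or circ_0005358 replicate 3 (0.0507). ZNF480 passed without vector replicate 2 and was lost without any of the other 5 libraries (limma adjusted p = 0.0721 to 0.104). ZNF180 was lost whichever library was left out (limma adjusted p = 0.062 to 0.088). The directions stayed as given in each of these fits. Without vector replicate 3 and without circ_0005358 replicate 2 together, none of the 6 passed (limma adjusted p = 0.0573 to 0.216). In that fit 3 other members passed, ZNF672, ZNF680 and ZNF830, among 378 of 10295 loci. With replicate 3 of both groups left out, none of the 6 passed (limma adjusted p = 0.0688 to 0.213). ZNF281, ZNF623 and ZNF672 did, among 228 of 10295 loci. With the replicate number as a block, none of the 225 members passed (limma), while 259 of 10295 loci did. In that fit 28 members had an unadjusted p under 0.05, and the share of all loci at that limit was not counted.

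For most members the test set limits on the difference without showing that there was none. The median width of the 95% interval to either side of the log2 fold change was 0.40 for the members and 0.26 for all tested loci. The interval lay within 1 on either side of 0 for 168 of 225 members (74.7%) and for 81.9% of all tested loci. It lay within 0.5 on either side for 85 members.

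ZNF genes with a known role were taken from a list of 28, of which 23 were members, 3 lay below the filter and 2 stood in rows that join several names. None of the 23 passed the test, against 11.4% of all tested loci. An unadjusted p under 0.05 was found for 2 of the 23 (8.70%; limma), ZNF148 and ZNF263, and for 27.3% of all tested loci. For ZNF148, a factor that binds GC-rich promoters, the vector libraries gave 10.02, 10.2 and 9.81 FPKM and the circ_0005358 libraries 8.58, 6.85 and 8.15 FPKM. Its groups did not overlap, with a log2 fold change of -0.32 (95% interval -0.54 to -0.10, limma adjusted p = 0.0824). ZNF263, a SCAN box factor, stood at 1.80, 1.72 and 1.46 FPKM against 0.954, 1.21 and 1.41 FPKM, also without overlap (limma adjusted p = 0.151). Lack of overlap was found in 4 of the 23 (17.4%), 0 higher and 4 lower, and in 35.8% of all tested loci.

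Among transcription regulators of the list, ZNF143, which binds many housekeeping promoters, gave 5.69, 5.29 and 5.74 FPKM in the vector libraries and 5.44, 4.55 and 6.08 FPKM in the others. The interval of its log2 fold change ran from -0.31 to 0.20. Its relative ZNF76 had an interval of -0.20 to 0.17, at 1.78 and 1.75 FPKM on average. ZNF217, an oncogene that works with corepressors, went from 12.6 ± 1.42 to 10.001 ± 1.88 FPKM (SD, n = 3 each), and its groups overlapped (limma adjusted p = 0.265). ZNF592 and ZNF687, which form a complex with ZMYND8, had log2 fold changes of 0.22 and -0.06, and ZMYND8 itself of 0.04. ZNF644, which with WIZ brings the methyltransferases G9a and GLP to DNA, had 0.04, and WIZ 0.16. None of these 5 complex members passed the test (limma adjusted p = 0.234 to 0.824). ZNF335, of a histone H3 lysine methyltransferase complex, had an interval of -0.20 to 0.27. ZNF330, whose groups did not overlap, averaged 7.04 and 6.13 FPKM (interval -0.38 to 0.03). ZNF131 had an interval of -0.35 to 0.40 and ZNF268 of -0.28 to 0.80.

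Among KRAB and imprinting factors, ZNF445, known for keeping imprints, had the narrowest interval of the 23, from -0.19 to 0.10. The vector libraries gave 3.42, 3.18 and 3.1724 FPKM and the circ_0005358 libraries 3.11, 3.12 and 3.1699 FPKM, so that the groups nearly met but did not overlap. ZNF274, which brings SETDB1 to the ends of zinc finger genes, stood at 2.9995, 2.84 and 3.03 FPKM against 1.97, 3.23 and 3.37 FPKM, with circ_0005358 replicate 1 low. ZNF10, whose KRAB box is used in engineered repressors, averaged 1.596 and 1.53 FPKM, with an interval of -0.45 to 0.42. ZNF91 and ZNF93, known for silencing retrotransposons, lay below the filter, at no more than 0.0319 and 0.193 FPKM in any library.

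Members that act in ribosome work or protein modification also did not pass. ZNF598, the ubiquitin ligase of collided ribosomes, gave 9.16, 7.40 and 9.80 FPKM in the vector libraries and 8.57, 8.74 and 7.84 FPKM in the others, with an interval of -0.33 to 0.22. ZNF451, a SUMO ligase, had an interval of -0.38 to 0.52, and ZNF746, a substrate of parkin, of -0.48 to 0.79. ZNF622, a factor of large ribosomal subunit maturation, stood at 14.03, 21.8 and 22.2 FPKM against 20.9, 10.9 and 14.5 FPKM, so that libraries of both groups mixed. ZNF593, also of large subunit maturation, stood at 1.65, 9.10 and 12.8 FPKM against 11.6, 13.9 and 12.2 FPKM, with vector replicate 1 far below the other 5. ZNF326 had 8.82 FPKM in vector replicate 3 and 4.67 to 5.22 FPKM elsewhere. Its partner in the DBIRD complex, CCAR2, rose to 16.7 ± 0.388 FPKM from 12.995 ± 0.472 FPKM (SD, n = 3 each), by 0.34 on the log2 scale (limma, adjusted p = 0.0168). A list of partners of named members had 7 tested genes and 1 below the filter. CCAR2 was the 1 of the 7 that passed (14.3%), against 11.4% of all tested loci.

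**Figure D3:**
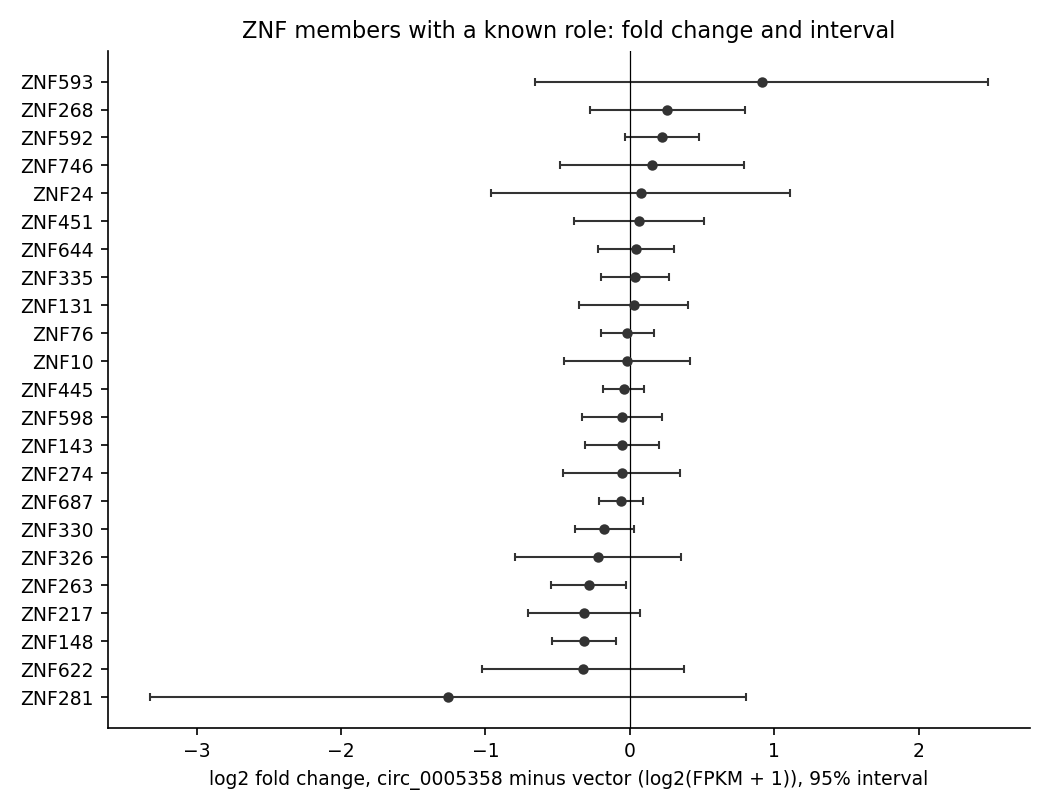
Log2 fold change, circ_0005358 minus vector, with its 95% interval from limma, for the 23 members with a known role. The intervals of ZNF148 and ZNF263 lie below 0 before adjustment, and those of ZNF281 and ZNF593 are the widest.

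The partners through which KRAB proteins repress were compared as a list of 30, of which 24 were tested, 2 lay below the filter and 4 stood in joined rows. TRIM28, the corepressor that binds the KRAB box, rose and was the 1 of 24 that passed, while 0 fell, against 11.4% of all tested loci. The vector libraries gave 51.3, 53.4 and 54.3 FPKM and the circ_0005358 libraries 64.3, 68.5 and 66.1 FPKM, apart by 0.32 on the log2 scale (SE 0.05; limma, adjusted p = 0.0176). SETDB1 stood at 4.64, 4.69 and 4.74 FPKM against 4.07, 4.47 and 4.88 FPKM and did not pass (limma adjusted p = 0.658). UHRF1, which reads methylated DNA, averaged 8.37 and 14.8 FPKM without overlap (limma adjusted p = 0.052). TRIM24, a relative of TRIM28, averaged 5.71 and 8.31 FPKM without overlap (limma adjusted p = 0.0644). Lack of overlap was about as common in this list as elsewhere. It was found in 9 of the 24 (37.5%), 7 higher and 2 lower, and in 35.8% of all tested loci. The HP1 genes CBX5 and CBX1, named here after their values were seen, were uneven between replicates. CBX5 stood at 2.24 FPKM in circ_0005358 replicate 2 and at 35.7 to 41.2 FPKM in the other 5 libraries. CBX1 stood at 8.23 and 6.62 FPKM in replicate 3 of both groups and at 22.1 to 26.2 FPKM in the other 4.

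By protein class, 120 members had a KRAB box and C2H2 fingers without a SCAN box, and 16 had a SCAN box (13 of them with a KRAB box too). A further 75 had at least 2 fingers and neither box, here called fingers alone, and 11 had fewer than 2 fingers. Domains other than these were not searched, so proteins of the class called fingers alone may hold them. The median member had 10 fingers. All 3 members that rose were among the 120 of the KRAB class, of which 0 fell and 12 had an unadjusted p under 0.05 (limma). All 3 that fell were among the 75 with fingers alone, of which 0 rose and 14 had an unadjusted p under 0.05. The shares called were 2.5% and 4% in these classes against 11.4% of all tested loci, and the unadjusted shares were 10% and 18.7% against 27.3%. Groups did not overlap in 14 of the KRAB class (11.7%), 8 higher and 6 lower. With fingers alone they did not overlap in 20 (26.7%), 13 higher and 7 lower, against 35.8% of all tested loci. ZNF180 among the rises and ZNF678 among the falls had reached the filter through the group in which they were high. The counts without overlap include them and ZNF624, whose groups the filter kept apart in the same way. The median log2 fold change was 0.00 in the KRAB class, -0.06 in the SCAN class, -0.01 with fingers alone and -0.09 with fewer than 2 fingers. The direction of calls by class rests on 6 genes, and the difference between classes was not tested.

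Chromosome 19 held 82 of the 225 members, and 65 of the 120 of the KRAB class. Of the 82, 3 were called and their median log2 fold change was -0.03, and of the 143 elsewhere 3 were called with a median of 0.00. These are 3.66% and 2.10% called, against 11.4% of all tested loci, and they include ZNF180 and ZNF678, which passed the filter through 1 group alone. Within the KRAB class the medians were 0.01 on chromosome 19 and -0.02 elsewhere. ZNF480 (ENSG00000198464), ZNF550 (ENSG00000251369) and ZNF180 (ENSG00000167384) lay apart along the chromosome. Their genes span chr19:52297177-52325922, chr19:57535257-57559863 and chr19:44474428-44500524 of GRCh38.

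The ZNF genes spread more widely between replicate libraries than the median locus. The SD between libraries of a group, on log2(FPKM + 1), had a median of 0.217 in the members and 0.13 in all tested loci, while the median absolute log2 fold changes were close, at 0.19 and 0.17. At least 1 group held libraries 3-fold or more apart in 55 members (24.4%) and in 10.2% of all tested loci. That share was 26.0% among members and 15.3% among all tested loci under 2 FPKM, 25.3% and 10.7% from 2 to 5 FPKM, and 19.4% and 8.86% from 5 to 20 FPKM. Above 20 FPKM it was 0 of 2 members and 6.91% of all tested loci. No test over the members was made, so these are descriptions of 1 set of libraries.

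The spread differed by protein class. Its median was 0.279 in the KRAB class, 0.168 with fingers alone, 0.15 in the SCAN class and 0.144 with fewer than 2 fingers. At least 3-fold differences within a group were found in 39 of 120 KRAB members (32.5%), 13 of 75 with fingers alone (17.3%), 0 of 16 with a SCAN box and 2 of 11 with fewer than 2 fingers. Within the KRAB class the median spread was 0.274 on chromosome 19 and 0.281 elsewhere.

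**Figure D4:**
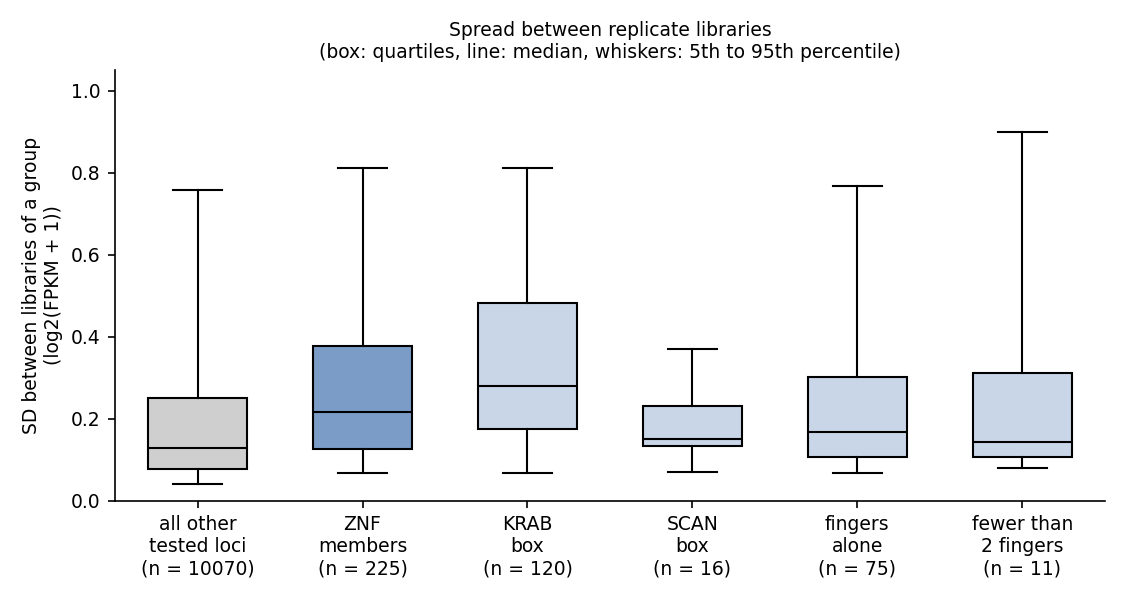
SD between libraries of a group, on log2(FPKM + 1), for all other tested loci, the ZNF members and 4 protein classes (box: quartiles, line: median, whiskers: 5th to 95th percentile). The median of the members is 0.217 and that of the KRAB class 0.279.

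The spread was also set beside other measures of the loci. By sequence shared with other genes, the median was 0.197 in 107 members with no shared stretch of 50 bases, 0.265 in 78 with under 5% shared and 0.204 in 37 with at least 5%. In 18 members with a single coding exon it was 0.372, and in 204 with several it was 0.215. By the number of transcripts listed for a locus, the median among other tested loci was 0.204 with 1 transcript, 0.173 with 2 or 3, 0.121 with 7 to 12 and 0.103 with 13 or more. Among members it was 0.137 with 1 transcript (11 members), 0.366 with 2 or 3 (29 members), 0.246 with 4 to 6, 0.199 with 7 to 12 and 0.175 with 13 or more. By the median, members with 1 listed transcript were the lowest among members, while other loci with 1 transcript were the highest among other loci. The share with at least 3-fold differences within a group did not show this contrast. It was 36.4% (4 of 11) in members with 1 transcript and 33.6% in other loci with 1. Among members it was higher only with 2 or 3 transcripts, at 48.3%. The part of these measures in the spread was not tested.

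In several of the widest members, high and low libraries occurred in both treatments. The genes named here were chosen after their values were seen, as those with the largest SD between replicates. ZNF367 gave 2.41, 13.3 and 12.4 FPKM in the vector libraries and 2.56, 14.8 and 2.20 FPKM in the others. ZNF12, a KRAB member, stood at 8.59, 1.10 and 0.732 FPKM and at 2.24, 7.88 and 8.13 FPKM. ZNF830 was listed at 0 in vector replicate 3 and in circ_0005358 replicates 1 and 3, and at 2.76, 3.17 and 2.41 FPKM in the remaining libraries.

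ZNF281, a regulator of stem cell and mesenchymal genes with a single coding exon, gave 6.02, 3.89 and 0.00722 FPKM in the vector libraries and 0.000952, 0.00314 and 1.53 FPKM in the others. Its low values lay in libraries of both treatments. The log2 fold change of -1.26 had a 95% interval of -3.32 to 0.81 (limma adjusted p = 0.396). It was -2.10 without vector replicate 3, -0.70 without vector replicate 1, and -2.42 with a pseudocount of 0.1. Without replicate 3 of both groups it was -2.55 and passed (limma adjusted p = 0.0376). ZNF260, with the largest positive log2 fold change of the 15 widest, 1.25, stood at 2.80, 1.41 and 3.66 FPKM against 11.4, 11.6 and 2.68 FPKM, so that circ_0005358 replicate 3 lay among the vector libraries. In ZNF92 vector replicate 2 alone was low, at 1.55 FPKM against 10.9 to 12.04 FPKM elsewhere. The lowest library stood at least 3-fold below the next lowest, or both stood at 0, in 21 members (9.33%). The same held for 4.16% of all tested loci. These counts thus include loci listed at 0 in several libraries, such as ZNF830. The lowest library was circ_0005358 replicate 3 in 9 of the 21, vector replicate 1 in 5 and circ_0005358 replicate 2 in 0. Ties at 0 were given to the first library, with vector libraries before circ_0005358 libraries.

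**Figure D5:**
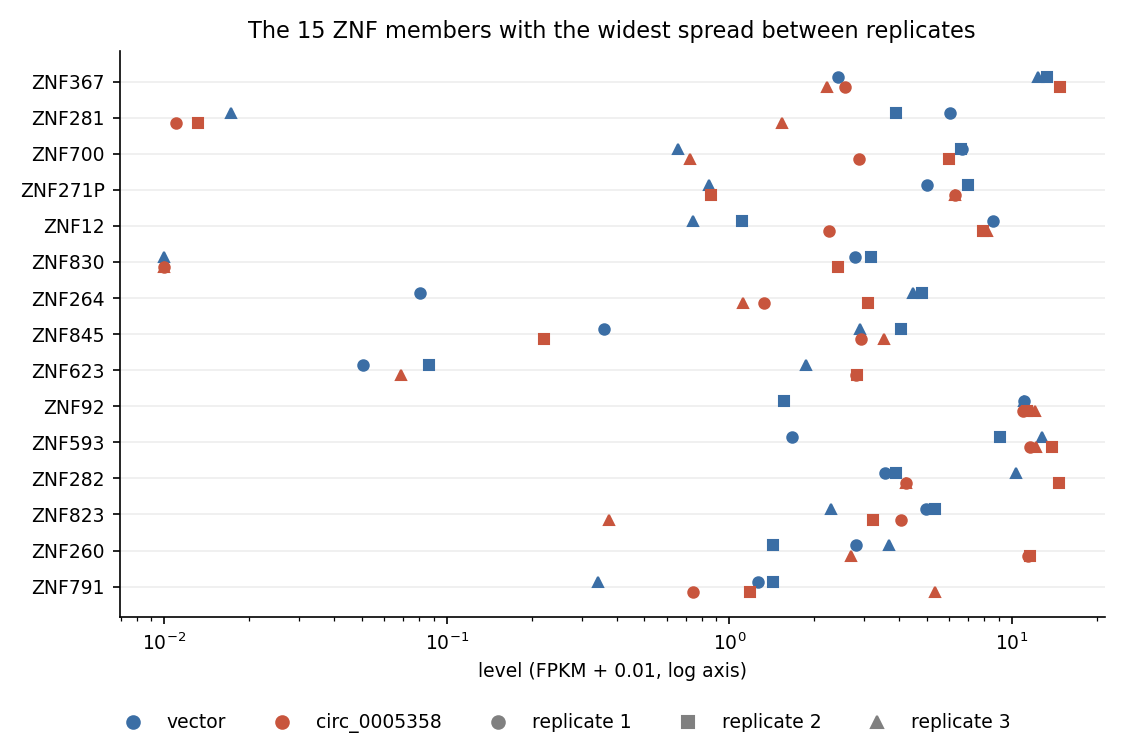
Level in each library (FPKM + 0.01, log axis; colour: treatment, marker shape: replicate number) of the 15 members with the largest SD between replicates. High and low libraries occur in both treatments, as in ZNF367 and ZNF12.

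None of the 6 most abundant members passed the test. ZNF770 gave 33.7, 32.6 and 30.4 FPKM in the vector libraries and 36.4, 33.6 and 34.1 FPKM in the others (95% interval of the log2 fold change -0.05 to 0.26). ZNF675, a KRAB protein known to bind TRAF6, stood at 28.6, 28.8 and 35.9 FPKM against 34.3, 37.4 and 37.1 FPKM, and its groups overlapped through vector replicate 3 (interval -0.04 to 0.48). ZNF106, an RNA-binding protein gene, stood at 12.5, 11.2 and 12.7 FPKM against 12.97, 13.5 and 13.1 FPKM (interval -0.05 to 0.28). ZNF146, made of fingers alone, averaged 21.8 ± 2.996 and 17.7 ± 4.21 FPKM (SD, n = 3 each), and ZNF24, a SCAN box protein, 14.3 ± 6.23 and 14.5 ± 4.43 FPKM. Of the 225 members 8 averaged at least 10 FPKM and 96 under 2 FPKM, around a median of 2.32 FPKM.

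At the edge of the filter, the members with the lowest qualifying value were ZNF33A, ZNF630 and ZNF75D, whose third-highest library stood at 1.01, 1.02 and 1.02 FPKM. Just outside were ZNF488, ZNF649 and ZNF251, at 0.999, 0.989 and 0.967 FPKM. With no filter, 3 of all 488 ZNF symbols passed (ZNF550, ZNF678 and ZNF827), as did 591 of 33088 loci. With a filter of 0.5 FPKM in 3 libraries, 7 of 291 passed, the 6 and ZNF385A, as did 1219 of 11702 loci. ZNF385A was lower with circ_0005358 and passed that filter through the vector libraries alone, so its groups could not overlap.

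Other zinc finger families were counted beside 11.4% of all tested loci called and 27.3% at an unadjusted p under 0.05. Of 27 tested ZBTB genes, ZBTB11 was the 1 that passed, from 13.1 to 10.8 FPKM (limma adjusted p = 0.0487), and 2 had an unadjusted p under 0.05. Of 15 KLF and SP genes, KLF7 was the 1 that passed, from 1.72 to 0.943 FPKM (limma adjusted p = 0.0359). In that family 6 of 15 (40%) had an unadjusted p under 0.05, and groups did not overlap in 6 (40%), 5 of them lower, against 35.8% of all tested loci. None of 13 ZFP, 7 ZSCAN or 5 ZKSCAN genes passed, with 2, 0 and 1 at an unadjusted p under 0.05 (limma). Their median spreads between replicates were 0.195 for ZBTB, 0.159 for KLF and SP, 0.226 for ZFP, 0.361 for ZSCAN and 0.214 for ZKSCAN genes. Of 25 tested rows that join a ZNF symbol with other names, 3 passed (12%), and for these the table does not say which gene moved.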

How the data were processed

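The authors deposited 1 table of FPKM values per locus and library. The submitters' processing notes name Trimmomatic, HISAT2 and hg19. Tool versions, the FPKM program and the gene annotation were not given in the sources used here. The table has no coordinates, so positions, coding sequences and exons are from GENCODE 29 on GRCh38. Members and lists were chosen with earlier results of these data known. Members are single-name rows whose symbol is ZNF, digits and at most 1 letter, with the highest-mean row kept. Values entered limma 3.58.1 (R 4.3.3) as log2(FPKM + 1), with a mean-variance trend. Two-sided p-values were adjusted by Benjamini-Hochberg over the 10295 loci that reached 1 FPKM in at least 3 libraries, and 0.05 was the limit. The scale understates changes of low genes. Protein classes come from the translated longest coding sequence of each member, since a table of reference proteins was not used here. Fingers were found by their cysteine and histidine spacing. KRAB and SCAN boxes were found with profiles (pyhmmer 0.12.3, E-value under 0.001) built from ZNF proteins that match a pattern. Named were members past the test without overlap, the 6 most abundant, those at the filter's edge, the list of known roles and up to 3 genes of each other list by smallest p. Others are marked as chosen after their values were seen or are partners of a named member. Alternatives were other pseudocounts, filters, scalings and variance models, library weights, a replicate block and libraries left out, with the tested loci kept. Pairs of libraries left out together were chosen after the data were seen.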

Additional observations from a re-analysis of the deposited data

How the results depend on the processing

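The count of 6 called members stayed between 4 and 8 with pseudocounts of 0.1 and 0.5, other scalings, no variance trend, library weights, and filters of 0.5 FPKM, a mean of 1 FPKM or 1 FPKM in all libraries. It was 3 with no filter (591 of 33088 loci) and 0 of 40 with FPKM of at least 5 in 3 libraries, where 10 had an unadjusted p under 0.05 (limma) and 781 of 5892 loci passed. Leaving out 1 library gave 3 to 9 members (3 without vector replicate 1 or 2, 4 without circ_0005358 replicate 3, 9 without vector replicate 3) and 582 to 802 of all loci. Leaving out vector replicate 3 and circ_0005358 replicate 2 gave 3 members and 378 loci, and leaving out replicate 3 of both groups gave 3 members, none of the 6, and 228 loci. With the replicate number as a block, 0 members passed (limma; 28 at an unadjusted p under 0.05; adjusted p of the 6 from 0.053 to 0.142) and 259 loci did. The labels do not say that a number marks a shared batch, and same-numbered libraries correlated at 0.0644, 0.0481 and 0.0781 in their deviations, each higher than with other numbers. On the second principal component of all tested loci (18.3% of variance), replicate 3 of vector and of circ_0005358 lay at -21.0 and -22.7 and the other 4 libraries at 5.66 to 16.1. The median log2 fold change of the members lay between -0.04 and 0.01 in all these fits. Read counts were not used here, so low members carry no counting interval.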
